A study of Mus musculus with 16 samples.

Results

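RNA polymerase II (Pol II) was mapped by chromatin immunoprecipitation with sequencing in neural progenitor cells after knockdown of Cbx3. The members are all 50 bp windows that the control siRNA and the Cbx3 siRNA libraries list, with the deposited signal of each window. All coordinates are on the build mm9. Windows up to 200 bp apart were merged over both libraries into 19593 Pol II regions, of 525774 regions when the windows of all 9 ChIP libraries with files are merged. The cells were derived from the V6.5 mouse embryonic stem cell line through 4 days as embryoid bodies. The control cells received an siRNA against luciferase, a gene mouse cells lack, and the other cells an siRNA against Cbx3, each for 72 hours before harvest. Chromatin was fixed with 1% formaldehyde in both. Each arm had 1 Pol II library, so the differences below were not checked against replicates and carry no p-value. Intervals are 95% intervals for counting error only, and regions are not replicates. Untreated progenitor cells gave a further Pol II library, listed over 8183 regions and independent of both arms. Cbx3 itself was mapped in untreated cells in 2 libraries, called Cbx3 set 1 and set 2 here.

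Pol II transcribes protein-coding genes and many long noncoding RNAs. On an active gene it commonly piles up just after the start site, where it pauses before release into elongation, and often again past the 3′ end, where it slows before termination. A narrow peak therefore often marks a start site, and a broad one a short gene covered from end to end. Cbx3 (HP1 gamma) binds methylated histone H3 in heterochromatin and is also found on the bodies of active genes. The question was how Pol II occupancy differs once Cbx3 is knocked down. The level of Cbx3 after the siRNA was not analysed here, and no library of the series mapped Cbx3 after siRNA. The markers of neural progenitors were not analysed either, because positions within genes need an mm9 annotation, which was not used here.

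For 2 broad regions the gene is named from general knowledge of the mm9 map, not from an annotation, and these names were chosen after the values were seen. They are Txnip on chromosome 3, which encodes a thioredoxin-binding protein that restrains glucose uptake, and Malat1 on chromosome 19, an abundant long noncoding RNA of nuclear speckles. Their promoters are shown because the highest Pol II windows of both broad regions are described below. Both sequences are from RefSeq (GRCm38.p6, read along the strand of the gene), from 250 bases before to 50 after the start. Capitals mark 4 motifs on either strand, none of which overlap here. They are the TATA box (TATAA), the site of the factor NF-Y (CCAAT), the GC box of Sp1 (GGGCGG) and the E-box of Myc-family factors (CACGTG). Only these exact letters were searched, so variant sites are not marked.
Txnip promoter: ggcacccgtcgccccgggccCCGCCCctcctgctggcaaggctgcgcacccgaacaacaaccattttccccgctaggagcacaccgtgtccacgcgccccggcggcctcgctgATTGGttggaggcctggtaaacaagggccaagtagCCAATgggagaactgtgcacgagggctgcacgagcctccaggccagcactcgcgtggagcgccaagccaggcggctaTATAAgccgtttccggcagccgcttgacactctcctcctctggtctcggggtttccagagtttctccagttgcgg
Malat1 promoter: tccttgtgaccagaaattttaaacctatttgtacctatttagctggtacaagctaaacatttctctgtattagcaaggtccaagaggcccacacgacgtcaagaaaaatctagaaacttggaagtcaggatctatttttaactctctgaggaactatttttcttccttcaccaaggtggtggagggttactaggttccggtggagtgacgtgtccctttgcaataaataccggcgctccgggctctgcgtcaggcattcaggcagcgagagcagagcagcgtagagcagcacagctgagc
The Txnip promoter held 1 TATA box, 2 NF-Y sites and 1 GC box by these letters, and the Malat1 promoter held none of the 4 motifs. Among all 32851 promoters of this length, 24.9% held the TATA box, 37.4% the NF-Y site, 35.7% the GC box and 7.15% the E-box. These matches describe letters in a window and say nothing of binding.

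Pol II signal was lower after Cbx3 siRNA in most windows and regions listed in both arms, and by less in the narrowest regions. The control library listed 116001 windows with a median signal of 16.6 and quartiles of 11.6 and 24.0. The Cbx3 siRNA library listed 101091 windows with a median of 14.7 and quartiles of 10.7 and 20.5. Both lists began at a signal of 6.006, and both rose in steps of 0.022. Of the control windows, 64.04% were listed again after Cbx3 siRNA. In these 74288 windows the median signal was 20.7 in control and 16.9 after Cbx3 siRNA, and the log2 difference (Cbx3 siRNA minus control throughout) had a median of -0.29, an interval of -0.29 to -0.28 and quartiles of -0.57 and 0.01. The Cbx3 siRNA value was the lower of the pair in 74.2% of them. A window not listed in 1 arm is left out of this difference. Inside regions that both arms listed, 69.7% of control windows with signals of 6 to 10 were not listed after Cbx3 siRNA. How far this moves the values of weak and narrow regions was not tested. A difference in depth or in pulldown between the libraries cannot be told apart from a change in the cells, since every site of an arm comes from the same library.

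Region by region, 11325 of the 19593 regions were listed in both arms, 4117 in control alone and 4151 after Cbx3 siRNA alone. In 10554 regions at least 1 window was listed in both arms. Their mean log2 difference had a median of -0.27 (interval -0.28 to -0.26, quartiles -0.49 and -0.05), and 78.9% were lower after Cbx3 siRNA. Regions at least 2-fold lower numbered 190, which is 1.8% of those compared, and regions at least 2-fold higher numbered 47, or 0.445%. Measured from the median of -0.27 in place of 0, the order turned: 41 regions (0.388%) lay 2-fold below it and 94 (0.891%) 2-fold above. Most of the large differences rested on few windows. Regions with 1 shared window held 46 of the 190 low calls and had an SD of 0.56 on the log2 scale. Regions with 20 or more shared windows had an SD of 0.17 and held none, and 94.5% of these 275 regions were lower. At 1.5-fold, 1698 regions (16.1%) were lower and 166 (1.57%) higher, and measured from the median the counts were 439 (4.16%) and 606 (5.74%). In the 2537 regions with 10 or more shared windows, 4 (0.158%) were at least 2-fold lower and none (0%) higher. At 1.5-fold these were 248 (9.78%) and 2 (0.0788%), and from the median of -0.27 they were 13 (0.512%) and 16 (0.631%).

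Whether a region was listed in both arms varied steeply with its width. Taking the regions of each arm on their own, 9.87% of the control regions of a single 50 bp window were also listed after Cbx3 siRNA (243 of 2463, interval 8.75 to 11.1%). The share was 42.5% for control regions of 100 to 200 bp, 89.8% for 250 to 500 bp and 98.8% for 550 to 1000 bp. Of the 624 control regions of 1050 to 2000 bp, 623 were listed again, and so were all 43 wider ones. In the other direction the shares were 15.03%, 51.9%, 91.6% and 99.02% for the same 4 width classes. By signal, 5.72% of the lowest decile of control regions were listed after Cbx3 siRNA, 79.6% of the fifth decile and 99.9% of the highest. For Cbx3 siRNA regions the lowest decile stood at 9.86%, the fifth at 79.9% and the highest at 97.3%. The highest decile was thus less complete in this direction, with 45 regions that control did not list. Strong regions of Cbx3 siRNA alone, merged over both arms and so not the same set, are described further below.

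**Figure D1:**
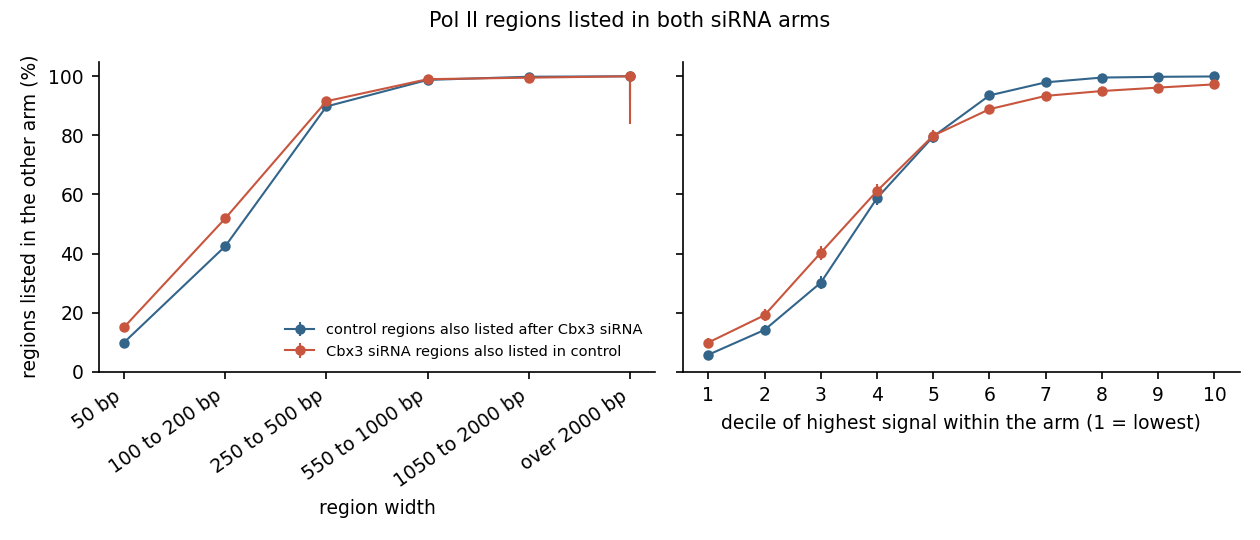
Share of Pol II regions of each siRNA arm that the other arm also lists (y axis, percent), by region width (left) and by decile of the region's highest signal (right); points are shares, bars 95% Wilson intervals, blue control regions, red Cbx3 siRNA regions. Shares climb from 9.87% and 15.03% for single windows to 100% for regions over 2000 bp, while the red points of the upper signal deciles stay below the blue ones.

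The size of the difference varied less with width, and hardly at all from 250 bp upward. The median log2 difference was -0.16 in regions of 100 to 200 bp, -0.25 in those of 250 to 500 bp, -0.30 in those of 550 to 1000 bp, -0.29 in those of 1050 to 2000 bp and -0.27 in the 78 wider ones. What narrowed with width was the spread, with quartiles of -0.48 and 0.13 at 100 to 200 bp and of -0.39 and -0.17 over 2000 bp. In the broadest class 74 of 78 regions were lower. Listed length followed the same course: within regions of both arms, Cbx3 siRNA listed 86.2% of the control length, with 6558 regions shorter, 1504 equal and 3263 longer. That share was 87.2% at 250 to 500 bp, 85.3% at 550 to 1000 bp and 86.3% over 2000 bp.

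The signal of either arm is itself part of the difference, so regions were also ranked by the untreated library. Of the 7166 regions with an untreated window, 115 were listed in control alone and 45 after Cbx3 siRNA alone. By decile of untreated signal the median log2 difference ran from -0.23 in the second decile to -0.33 in the ninth, and it was -0.29 in the lowest and -0.32 in the highest. The share of regions lower after Cbx3 siRNA was 79.4% in the lowest decile, 84.2% in the fifth and 91.2% in the highest. The medians of the highest windows were 21.3 in control and 16.8 after Cbx3 siRNA in the lowest decile, and 53.5 and 42.4 in the highest. The quartiles of neighbouring deciles overlapped throughout. Regions without an untreated window had a median of -0.20 (interval -0.22 to -0.19, n = 3630), and 65.2% of all such regions were listed in 1 arm alone.

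**Figure D2:**
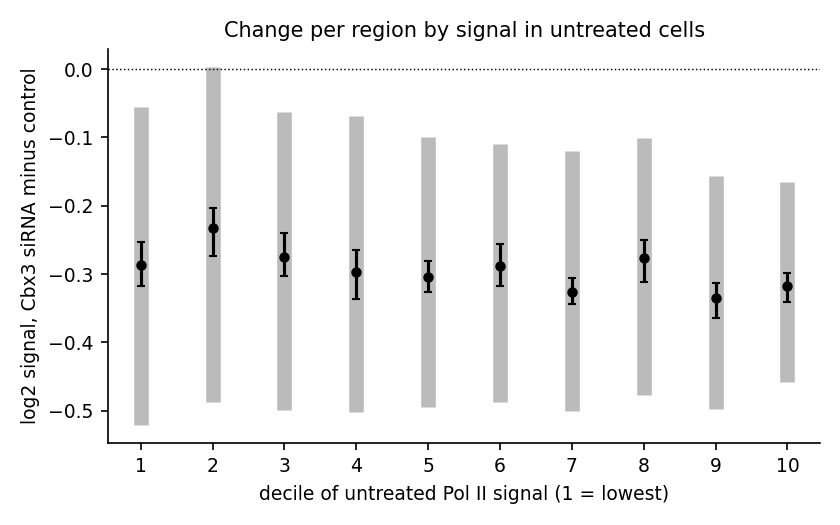
Log2 Pol II signal, Cbx3 siRNA minus control, per region (y axis) for deciles of untreated Pol II signal (x axis, 1 the lowest); points are medians with 95% intervals and grey bars span the quartiles. All 10 medians lie between -0.23 and -0.33, and the share of regions that were lower was 79.4% in the lowest decile and 91.2% in the highest.

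Regions were also compared by stronger Pol II nearby and by Mediator. Regions within 5 kb of a stronger region of both arms, as peaks along 1 gene or at close neighbours would be, had a median log2 difference of -0.20 (interval -0.23 to -0.17, n = 1057). Regions with no stronger one within 50 kb had -0.30 (interval -0.31 to -0.29, n = 6134). Regions of the first kind are by construction the weaker of a pair, so signal moves with this comparison, and its part was not tested. Cdk8 is the kinase of the Mediator complex, which links activators to Pol II. Untreated Pol II regions with a control Cdk8 window had a median of -0.31 (interval -0.33 to -0.27, n = 813) and those without it -0.30 (interval -0.31 to -0.29, n = 6111). In 5 classes of equal size by untreated signal, the medians went from -0.25 in the weakest to -0.33 in the strongest with Cdk8, and from -0.27 to -0.33 without it. For control Med26, the Mediator subunit that recruits elongation factors, the medians were -0.31 with it (interval -0.32 to -0.30, n = 3380) and -0.29 without it (interval -0.30 to -0.28, n = 3544). By class of untreated signal the Med26 medians went from -0.25 in the weakest to -0.33 in the strongest with it, and from -0.27 to -0.33 without it. In the second class they were -0.30 with and -0.27 without, and in the fourth -0.33 and -0.29. Regions lower after Cbx3 siRNA were 86.5% with control Med26 and 81.3% without. The intervals with and without each subunit overlapped, which does not show that the classes were equal.

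Within a region, how the difference varied with distance depended on which library set the centre. The 6728 regions used had at least 3 windows listed in each arm and an untreated window at a listed position. Measured from the highest control window, the median log2 difference was -0.44 at that window, -0.17 at 200 bp and -0.22 at 550 to 1000 bp. From the highest Cbx3 siRNA window it was -0.19 at that window, -0.42 at 200 bp and -0.28 at 550 to 1000 bp, the opposite order. From the highest untreated window among those that either arm listed, it was -0.33 at the window, -0.29 at 200 bp and -0.25 at 550 to 1000 bp. From this untreated centre, the share of control windows listed again went from 94.5% at the centre through 68.7% at 200 bp to 57.5% at 550 to 1000 bp. These shares are partly set by the choice of regions, which were kept only where both arms listed windows. Windows far from the centre were weaker: the control median was 27.8 at the centre and 14.3 at 550 to 1000 bp. The position of the highest window was about as close between the arms as between control and untreated cells. The highest windows of control and Cbx3 siRNA were the same in 37.1% of regions and within 100 bp in 83.7%, beside 33.4% and 82.1% for control and untreated. For Cbx3 siRNA and untreated these shares were 31.7% and 80.3%, the lowest of the 3 pairs.

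**Figure D3:**
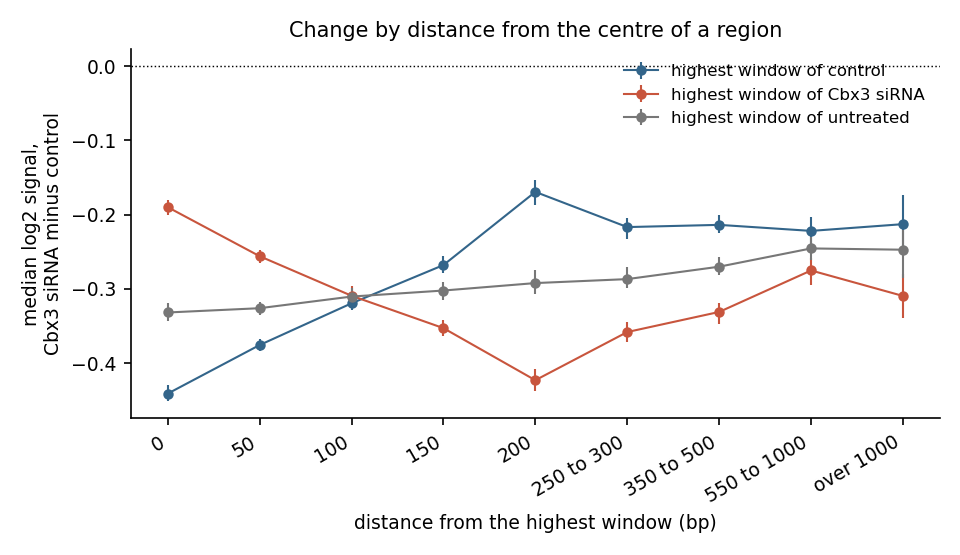
Median log2 Pol II signal, Cbx3 siRNA minus control (y axis), in windows listed in both arms by distance from the highest window of the region (x axis, bp), with that window taken from control (blue), Cbx3 siRNA (red) or untreated cells (grey); bars are 95% intervals. The blue and red lines run in opposite orders, from -0.44 and from -0.19 at the centre, and the grey line goes from -0.33 to -0.25.

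The broadest region was that of Txnip, at chr3:96361501-96367000. Control listed 5200 bp of it and Cbx3 siRNA 3450 bp, with highest windows of 99.5 and 78.9, and 69.03 in untreated cells. Over the 66 shared windows the mean log2 difference was -0.34, lower in 53 of them, close to the median of -0.30 over all 2537 regions with 10 or more shared windows. The difference was uneven along the region. The ends of the gene within it were not placed, since no mm9 annotation was used. Txnip lies on the plus strand in RefSeq, so distances from the low-coordinate end run from its 5′ side to its 3′ side. The highest control and untreated windows lay 425 bp into the region and the highest Cbx3 siRNA window 475 bp. From 0 to 500 bp the log2 difference was -0.30 over 6 shared windows. From 500 to 1000 bp the mean signal was 44.8 in control and 32.8 after Cbx3 siRNA, and from 1000 to 1500 bp 25.1 and 13.1, log2 differences of -0.53 and -0.93 over 10 shared windows each. In the next 3 stretches of 500 bp it was -0.47, -0.34 and -0.20, over 5 to 7 shared windows. A second peak near the 3′ side, from 4500 to 5000 bp, had means of 40.7 and 40.5 and a log2 difference of -0.03. Control listed all 10 windows from 5000 to 5500 bp, with a mean of 18.0, and all 10 from 3000 to 3500 bp, with a mean of 11.1, and Cbx3 siRNA listed none of either. From 3500 to 4000 bp the log2 difference was 1.01, but over 2 shared windows.

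The region of Malat1, at chr19:5799551-5803950, was also uneven, and the ends of this gene were likewise not placed. Control listed 3700 bp and Cbx3 siRNA 3800 bp, with highest windows of 124.1 and 94.97. The mean log2 difference over 67 shared windows was -0.21. The gene lies on the minus strand, so its 5′ side is at the right. Around its main peak, from 3000 to 3500 bp into the region, the means were 53.7 and 41.6 (-0.37). Going from that peak toward the 3′ side, the next 4 stretches of 500 bp had log2 differences of -0.14, -0.27, -0.39 and 0.10.

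**Figure D4:**
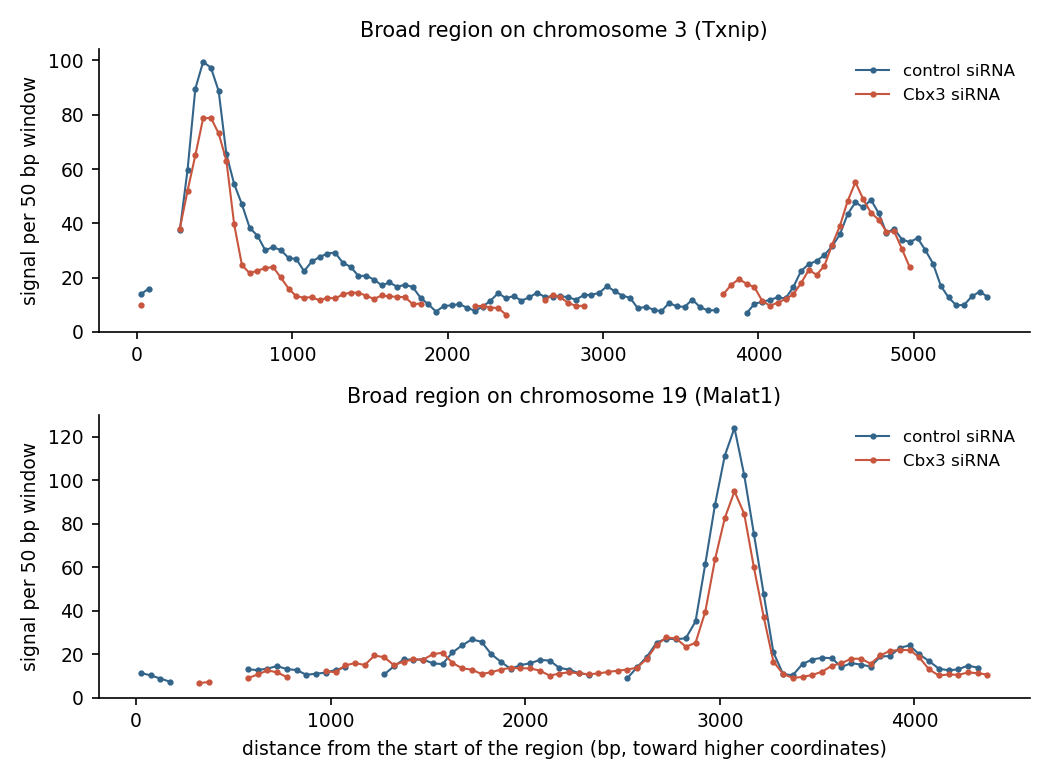
Pol II signal per listed 50 bp window (y axis) along the broad regions of Txnip (top) and Malat1 (bottom) by distance from the start of the region (x axis, bp); blue is control and red Cbx3 siRNA, and breaks are windows not listed. At Txnip control is the higher line at the main peak (99.5 against 78.6 at 425 bp) and from 1000 to 1500 bp, and at 4500 to 5000 bp the means are 40.7 and 40.5.

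Of the 10 regions with the greatest span, from 3500 to 5500 bp, 9 were lower after Cbx3 siRNA. The lowest mean, -0.49, was at chr11:102178001-102182250, where the highest windows were 35.8 and 27.6 and 3900 bp became 2800 bp. At chr17:34255401-34260300 the highest windows were 98.7 and 84.6, with a mean of -0.41. The exception was at chr3:128916701-128921050, with 25.7 and 31.3 and a mean of 0.09. It alone of the 10 had more windows listed in untreated cells (71, the highest at 58.9) than in control (66) or after Cbx3 siRNA (67). Untreated values have a different step and are not compared in level.

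The 10 regions with the lowest mean among those with 10 or more shared windows ran from -1.17 to -0.89, and the next one stood at -0.87. They were chosen for these values, which are a description. At chr11:57821901-57822800 the highest window was 34.1 in control and 15.8 after Cbx3 siRNA (mean -1.17), lower in all 11 shared windows. At chr6:148844501-148845100 it was 66.8 and 30.4 (-1.10), although the listed length was 550 and 600 bp. At chr3:146162351-146163200 it was 47.0 and 21.5 (-1.07), and the listed length went from 850 to 500 bp. At chr16:90385951-90386800 it was 23.3 and 13.1 (-1.03). These 4 regions are the ones at least 2-fold lower. At chr14:55512351-55513400 the highest windows were 38.2 and 15.1 (-0.98) and the length 1050 and 500 bp, and at chr4:116691801-116692400 they were 51.9 and 27.9 (-0.96). Lower values were thus spread over 9 chromosomes. All 10 regions were listed in untreated cells. Control Med26 lay at 4 of them, and Med26 after Cbx3 siRNA at 2 of those 4. Among all 7401 regions of both arms with a signal of at least 20, untreated Pol II lay at 82.5%, control Med26 at 48.2% and Med26 after Cbx3 siRNA at 10.8%. The Med26 library after Cbx3 siRNA listed 2721 windows in all, against 15546 in control. Nothing is read from the counts of 10.

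The 10 highest means ran from 0.66 to 0.40, with the next at 0.39. At chr3:68808301-68809350 the highest window was 17.3 in control and 22.7 after Cbx3 siRNA (mean 0.66), higher in all 13 shared windows. At chr17:17963551-17964350 it was 23.0 and 42.5 (0.65), higher in all 12. At chr2:106533451-106534700 it was 20.1 and 21.8 (0.53). At chr8:108160051-108161400 it was 29.5 and 41.7 (0.42) over 19 shared windows. Listed length went either way, from 800 to 850 bp in the first of these and from 1350 to 950 bp in the last. The highest control windows of these 10 regions ran from 12.6 to 29.5, and those of the 10 lowest from 23.3 to 66.8. Control signal is part of the difference that chose both sets, so nothing is read from this contrast. Untreated signal did not enter the choice. Its highest windows ran from 12.4 to 33.3 where listed in the 10 highest regions, and from 10.2 to 43.2 in the 10 lowest. Of the 10 highest regions, untreated Pol II was listed at 9 and control Med26 at 7, and none held Med26 after Cbx3 siRNA. Among all 7401 regions of both arms with a signal of at least 20, these shares were 82.5%, 48.2% and 10.8%, so nothing is read from the counts of 10.

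The highest Pol II signal was at chr17:39980251-39982250, with 157.6 in control, 162.0 after Cbx3 siRNA and 168.3 in untreated cells. Its mean log2 difference was 0.01 over 18 shared windows. All 9 libraries list this stretch, so its listing is not limited to Pol II. The next in order were all lower after Cbx3 siRNA: 157.1 and 110.4 at chr10:39977251-39978900 (-0.38, lower in all 26 shared windows), 152.9 and 115.7 at chr4:131825651-131826550 (-0.32), 149.7 and 107.03 at chr11:69571601-69573200 (-0.37), and 148.2 and 99.1 at chr3:96132351-96133100 (-0.35).

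Strong regions listed after Cbx3 siRNA alone rarely held any other mapped factor. With a highest signal of at least 20, a limit chosen after the values were seen, 237 regions were listed after Cbx3 siRNA alone, 48 in control alone and 7401 in both. An untreated window lay at 6 of the 237 (2.53%, interval 1.17 to 5.41%), at 20 of the 48 (41.7%, interval 28.8 to 55.7%) and at 82.5% of those in both. Control Med26 lay at 0.844%, 31.2% and 48.2% of the 3 classes, and control Cdk8 at 1.69%, 12.5% and 11.8%. Cbx3 set 1 lay at 2.11%, 35.4% and 59.9%. Weaker regions of both arms held an untreated window in 12.4% of cases at signals of 10 to 15 and in 2.47% at 6 to 10, and Cbx3 set 1 in 36.4% and 29.6%. Weaker regions of Cbx3 siRNA alone held an untreated window in 2.27% at 15 to 20 and in 2.35% at 10 to 15, and Cbx3 set 1 in 6.82% and 12.3%. Weaker regions of control alone held an untreated window in 5.12% at 10 to 15 and in 0.318% at 6 to 10. The untreated list began at 9.02 on its own scale and held 34855 windows, fewer than either arm. Its low shares at weak signals are therefore not read as a property of the regions.

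These 237 regions were about as narrow as those of control alone and lay farther from other Pol II regions. Their median span was 250 bp (quartiles 200 and 350), beside 300 bp (quartiles 250 and 412.5) for those of control alone and 600 bp for strong regions of both arms. The nearest region of both arms was a median of 202501 bp away, and over 50 kb away in 74.7% of cases, beside 30901 bp and 39.6% for the 48 regions of control alone. Weaker regions showed the same contrast, so it was not limited to the strong class. At signals of 15 to 20 the median distance was 260901 bp for Cbx3 siRNA alone and 19901 bp for control alone. At 10 to 15 it was 47001 and 10751 bp. On chromosome 10 lay 25 of the 237 (10.5%), against 4.89% of the strong regions of both arms and 8.33% (4 regions) of those of control alone. Chromosome 11 had 3.80% against 8.81% and 6.25%, and chromosome X 2.95% against 0.838% and 0%. These chromosomes are examples picked from all of them, and nothing is read from them. Strongest were a 100 bp stretch at chr3:5860651-5860750 (76.7) and one at chr11:108873101-108873350 (60.3), and both were listed in untreated Pol II and in both Cbx3 sets. Cdk8 signal there reached 204.3 and 132.2 in control and 215.5 and 160.9 after Cbx3 siRNA. The next had no window in any other list: 55.3 at chr9:110963451-110963800, 49.8 at chr8:18946751-18946950, and 45.7 at chr2:18255901-18256150. What sets regions of Cbx3 siRNA alone apart was not tested, and with 1 library per arm it cannot be told apart from a property of that library.

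**Figure D5:**
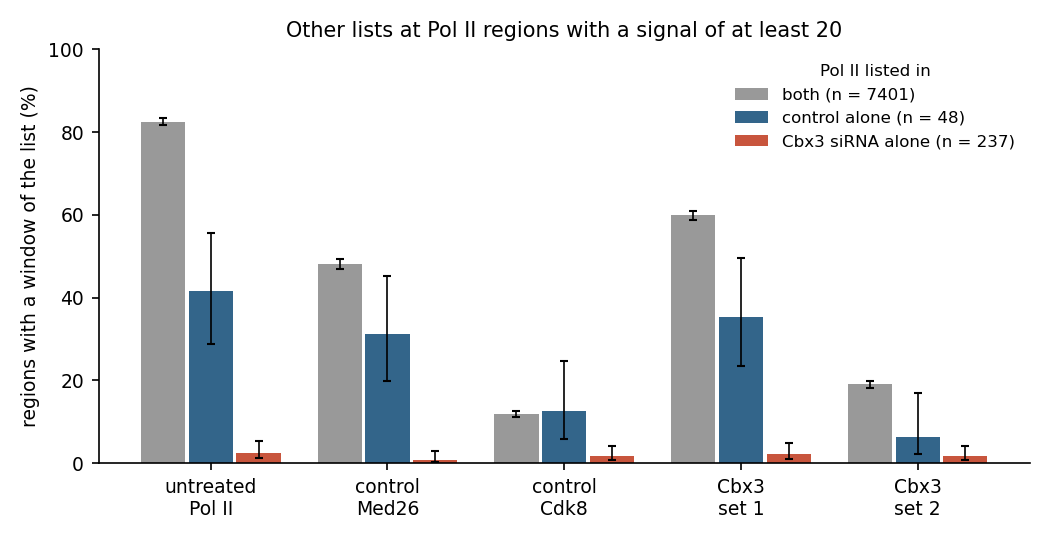
Share of Pol II regions with a signal of at least 20 that hold a window of another list (y axis, percent), for regions listed in both arms (grey, n = 7401), in control alone (blue, n = 48) and after Cbx3 siRNA alone (red, n = 237); bar heights are shares and thin lines 95% Wilson intervals. The red shares are at most 2.53% in every list (interval up to 5.41%), and the blue share for untreated Pol II is 41.7% (interval 28.8 to 55.7%).

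Strong regions of control alone more often held the other lists, as given above. The 5 strongest were those at chr12:76919201-76919500 (36.1), chr1:169323901-169324450 (31.5), chr15:58704101-58704350 (30.5), chr5:77403601-77403900 (27.7) and chr1:87790951-87791300 (27.7). Of these 4 were listed in untreated cells and 2 held control Med26. Inside regions of both arms, 11.1% of control windows with signals of 20 to 30 were not listed after Cbx3 siRNA, and 2.33% of such Cbx3 siRNA windows were not listed in control. Windows above 50 were missing from the other list in 1.16% and 2.46% of cases, so an unlisted window cannot be read as one of low signal.

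The spread between the siRNA arms was set beside the spread of each against untreated cells. In 2532 regions with 5 or more windows in all 3 Pol II lists, the mean log2 difference had a median of -0.33 and an SD of 0.27 for Cbx3 siRNA minus control. It had 0.64 and an SD of 0.34 for control minus untreated, and 0.33 and 0.34 for Cbx3 siRNA minus untreated. These pairs share libraries, and the untreated step of 0.0211 differs from that of the arms, so the medians across that step are not changes in level.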

How the data were processed

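Pol II signal was compared between control siRNA and Cbx3 siRNA cells, 1 library each. The deposited files list 50 bp windows and give each a signal the authors computed, with no window below a minimum. Bowtie and the build mm9 are named per the submitters' processing notes. Not given in the sources used here are the aligner's version, the window test, the scaling and how inputs entered. All Pol II values were whole multiples of a step, 0.022 in both arms, within 0.05 of a step, and no rescaling was applied. Depth is unknown, whatever the step. From the files, windows up to 200 bp apart were merged; the log2 difference was taken in windows listed in both arms and averaged per region. A region held another list where that list has 1 of its windows. Called means at least 2-fold. Named were the 10 lowest and 10 highest regions with 10 or more shared windows, the 5 strongest of each arm alone, the 10 of greatest span and the 5 of highest signal. Members, lists and rules were chosen with earlier results of these data known. Position within genes was planned and was not run, since the gene table at hand has GRCm38 coordinates; the gene and marker lists were likewise not run. The log2 difference per region was tested on simulated data in regions with 10 or more shared windows, and merging on a made-up list. The shares listed again and the regions of 1 arm alone were not tested in this way. Software was Python 3.11.15 with scipy 1.17.1, pandas 2.3.3, numpy 2.4.6 and, for plots, matplotlib 3.10.9. Shares carry Wilson intervals, and medians those of the order statistics. Alternatives covered overlap, merging, threshold, equal numbers, missing values, the measure per region and the choice of centre.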

Additional observations from a re-analysis of the deposited data

How the results depend on the processing

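No paired analysis was possible because every siRNA arm holds a single library. The median difference over windows and over regions was below 0 under every alternative run for it. The order of the 2-fold counts turned when values were taken relative to the median, and the difference by position turned with the centre. The cause was not tested. Of control regions, 67.9% were listed after Cbx3 siRNA; the share was 66.7% with an overlap of at least 50% of the shorter region, 65.97% with no gap, 72.3% with gaps of 500 bp, 73.2% with windows above the control median in both arms and 80.9% with equal numbers of windows. The median log2 difference in windows was -0.26 above that median and -0.33 with missing values at the lowest listed signal. Per region it was -0.29 by the highest window and -0.43 by summed signal, which counts unlisted windows as 0. Regions at least 2-fold lower were 411 by the highest window, 2243 by summed signal, 41 relative to the median, 1698 at 1.5-fold and 94 with at least 3 shared windows, against 190. Regions at least 2-fold higher were 588 by summed signal, 94 relative to the median, 166 at 1.5-fold and 11 with at least 3 shared windows, against 47. The centre minus 550 to 1000 bp was -0.22 from control, -0.066 from the mean of both arms, -0.086 from untreated and 0.085 from Cbx3 siRNA. Strong regions after Cbx3 siRNA alone were 457 at a signal of 15 and 56 at 30, and those of control alone 275 at 15, 3 at 30 and 75 with regions merged within each arm; the untreated centre, the 3 shared windows and these limits were chosen after seeing the data. Of 80 values of named regions under alternatives, 71 moved by less than the SD over their windows; by summed signal, the region on chromosome 6 starting at 98978101 became -0.24 and the region on chromosome 15 starting at 82729351 became -0.13. The comparison by start site was left out.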

Other observations

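Chromosome Y held 27 Pol II windows after Cbx3 siRNA and none in control or untreated cells. They formed 4 regions, at chrY:1677951-1678250 (highest signal 23.7), chrY:2004451-2004550 (10.6), chrY:2508401-2509100 (17.2) and chrY:2562051-2562300 (13.8), and neither Cbx3 set was listed at their windows. Chromosome X went from 2009 windows in control to 1536, or 76.5%, the lowest share of any chromosome, while chromosome 16 kept the highest, 95.9% (3592 to 3444). In shared regions the median log2 difference was -0.26 on X and -0.24 on chromosome 16, within the range of -0.31 to -0.24 over all chromosomes with shared regions. The 8 Pol II regions listed in all 9 libraries had a median of -0.20 (interval -0.55 to 0.01).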
